A study of Mus musculus with 10 samples.

Results

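NDFIP1 and NDFIP2 are small membrane proteins of the Golgi and endosomes that bind and activate HECT-type ubiquitin ligases of the NEDD4 family. The genes described here are these 2 adaptors, Ndfip1 and Ndfip2, and 5 ligases, Nedd4, Nedd4l, Itch, Wwp1 and Wwp2, 7 of the 56691 genes in the deposited count table. They were taken by symbol, and the group was chosen by a measured value, the lower level of the abundant transcript Ndfip1 after restraint in these same libraries. Its restraint difference and those of its partners are therefore given as a description. Counts of calls among them are printed only to set them beside all genes, and are not tests of the group.

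Libraries came from the ventral tegmental area, a midbrain region rich in dopaminergic neurons, of male C57BL/6 mice labelled WT. The restraint group (5 libraries) had been kept from moving for 30 min, a brief stressor, and the control group (5 libraries) had not. Animals of both groups carried NBL10-HA, a tagged construct expressed in dopaminergic neurons and used to enrich their ribosome-associated RNA. The promoter or Cre line behind the construct, the age of the mice and the number of animals per library are not given in the sources used here. Unenriched RNA was not analysed here. The study set out to find signalling pathways that change in these neurons with acute restraint.

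A NEDD4 family ligase holds WW domains, which recognise a short proline-rich motif called PPxY (proline, proline, any residue, tyrosine), and a C-terminal HECT domain, whose cysteine accepts ubiquitin and passes it on to the substrate. NDFIP proteins carry PPxY motifs. By binding the WW domains they relieve the autoinhibition of the ligases and bring them to membrane substrates that lack the motif. In neurons this system is known for the turnover of metal transporters, channels and receptors, and NDFIP1 has been described as a protein that neurons raise after injury and that limits iron uptake through the transporter DMT1.

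These motifs are written in the coding sequences of the genes. In the main coding transcripts (GENCODE M21, GRCm38), Ndfip1 encodes 221 residues with PPxY motifs at residues 39 and 64, and Ndfip2 encodes 338 residues with PPxY motifs at residues 150 and 176. Both adaptor proteins are 61.9% identical over 202 aligned residues. No PPxY motif was found in the 5 ligases, which instead hold 3 (Nedd4) or 4 (Nedd4l, Itch, Wwp1 and Wwp2) matches to a WW domain pattern. The sites of Ndfip2 are shown because they are the stretches that its ligases bind, with the 4 codons of each motif in capitals. The first lies at chr14:105287722-105287757 and the second at chr14:105292252-105292287 (plus strand, GRCm38).
Ndfip2 site 1: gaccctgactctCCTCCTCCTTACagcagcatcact
Ndfip2 site 2: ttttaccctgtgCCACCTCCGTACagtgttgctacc

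The ligases fall into 2 branches by sequence. Nedd4 (887 residues) and Nedd4l (976 residues) were 68.3% identical, and Itch (864), Wwp1 (918) and Wwp2 (870) were 61.0 to 65.1% identical to each other, whereas identity between the branches was 40.1 to 43.5%. The stretch around the catalytic cysteine is shown for 4 ligases because it is the part of the enzyme that carries ubiquitin. The cysteine codon is in capitals and stands for residue 854 of Nedd4, 832 of Itch, 886 of Wwp1 and 838 of Wwp2. Each stretch of 54 coding bases joins 2 exons, and the spans on GRCm38 are chr9:72746463-72747162 (Nedd4, plus strand), chr2:155220264-155224403 (Itch, plus strand), chr4:19611777-19618301 (Wwp1, minus strand) and chr8:107556768-107556923 (Wwp2, plus strand).
Nedd4: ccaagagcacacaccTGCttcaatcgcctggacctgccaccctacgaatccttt
Itch: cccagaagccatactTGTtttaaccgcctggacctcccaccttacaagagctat
Wwp1: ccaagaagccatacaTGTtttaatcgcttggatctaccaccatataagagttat
Wwp2: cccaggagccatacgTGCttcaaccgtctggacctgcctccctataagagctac
Itch, Wwp1 and Wwp2 differ from each other at 9 to 14 of these 54 bases, and all of their 18 codons stand for the same residues. Nedd4 differs from the 3 others at 16 to 18 bases, with another residue at 3 of the 18 codons.

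The library totals ran from 56082358 to 86584968 counts, and 18440 genes passed the filter on low counts, all 7 genes described here among them. Ndfip1 had 41448 to 92601 counts in a library, so counting error is small beside the spread between libraries. On the first principal component, which held 22.6% of the variance, the restraint 1 library stood apart at 92.1, with the 9 others between -19.2 and 4.08. Markers of dopaminergic neurons (12 of 12 genes) had counts in every library and summed to 2063 to 2827 CPM (counts scaled to a common library size by TMM) after restraint and 1877 to 2527 CPM in controls. Markers of other cell types also had counts in every library. The 12 astrocyte markers summed to 7273 to 8532 CPM after restraint and 6333 to 7687 CPM in controls, and the 12 oligodendrocyte markers to 1671 to 2261 CPM after restraint and 1746 to 2141 CPM in controls. The sums of microglia, vascular, GABA neuron and glutamate neuron markers likewise overlapped between the groups, and no marker was at 0. At an unadjusted p under 0.05 in edgeR, 6 of 12 dopaminergic, 4 of 12 astrocyte, 3 of 12 oligodendrocyte, 3 of 12 vascular and 1 of 8 GABA neuron markers were higher after restraint (5.64% of all genes), and 1 vascular marker was lower (6.04%). None passed edgeR's adjusted threshold. DESeq2 called 3 dopaminergic, 1 astrocyte and 1 oligodendrocyte marker higher, where it called 0.754% of all genes higher. It gave no adjusted p for most microglia and vascular markers, so these could not be called. En1, a dopaminergic neuron transcription factor, and Gfap, an astrocyte filament gene, had the smallest edgeR p of their lists. Their log2 fold changes were 0.57 ± 0.11 and 0.37 ± 0.09 (SE). Each was the only 1 of its 12 listed markers with every restraint library above every control (1.25% of all genes). Of the 12 dopaminergic markers 10 had positive and 2 negative fold changes, and of the 12 astrocyte markers 8 and 4. The part of these markers in the results below was not tested. RNA of glia is therefore part of these libraries, and the cell type that holds a given transcript cannot be read from them. Nor can fewer cells of a type and less RNA per cell be told apart.

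Ndfip1 was by far the highest of the 7 genes. Levels can be set against each other only per length, so the following values are RPKM, which is CPM divided by the deposited exon length of the gene in kilobases. Ndfip1 averaged 134 ± 21.1 RPKM after restraint and 194 ± 16.1 RPKM in controls (SD, n = 5 each). Nedd4, the founding ligase of the family, came next with 37.0 ± 6.05 RPKM after restraint and 36.7 ± 2.33 RPKM in controls. Ndfip2 averaged 11.3 ± 1.05 RPKM after restraint and 12.9 ± 1.16 RPKM in controls.

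The other ligases were lower. Wwp1 averaged 8.34 ± 0.505 RPKM after restraint and 8.06 ± 0.680 RPKM in controls, and Itch averaged 6.90 ± 0.281 RPKM after restraint and 6.29 ± 0.266 RPKM in controls. Wwp2 averaged 5.53 ± 0.168 RPKM after restraint and 5.36 ± 0.626 RPKM in controls. Nedd4l, a ligase known for removing the epithelial sodium channel from the cell surface, was lowest, with 3.17 ± 0.681 RPKM after restraint and 3.07 ± 0.401 RPKM in controls. In this order no gene's range over libraries overlapped that of its neighbour in the same group.

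The lower part of that order depends on which length is used, because the deposited exon length adds up the exons of all transcripts. It is 19400 bases for Nedd4l, against 3792 bases in its main transcript, while Wwp1 has 6453 and 6440 bases. Per length of the main transcript, Ndfip1, Nedd4 and Ndfip2 kept places 1 to 3, and Nedd4l moved up to place 4 with 16.2 RPKM after restraint and 15.7 RPKM in controls. Itch then had 12.6 RPKM after restraint and 11.5 RPKM in controls. Wwp2 had 11.4 RPKM after restraint and 11.02 RPKM in controls, and Wwp1 came last with 8.36 RPKM after restraint and 8.08 RPKM in controls. On that scale Nedd4l and Itch overlapped in range after restraint, and Itch and Wwp2 overlapped in the controls.

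**Figure D1:**
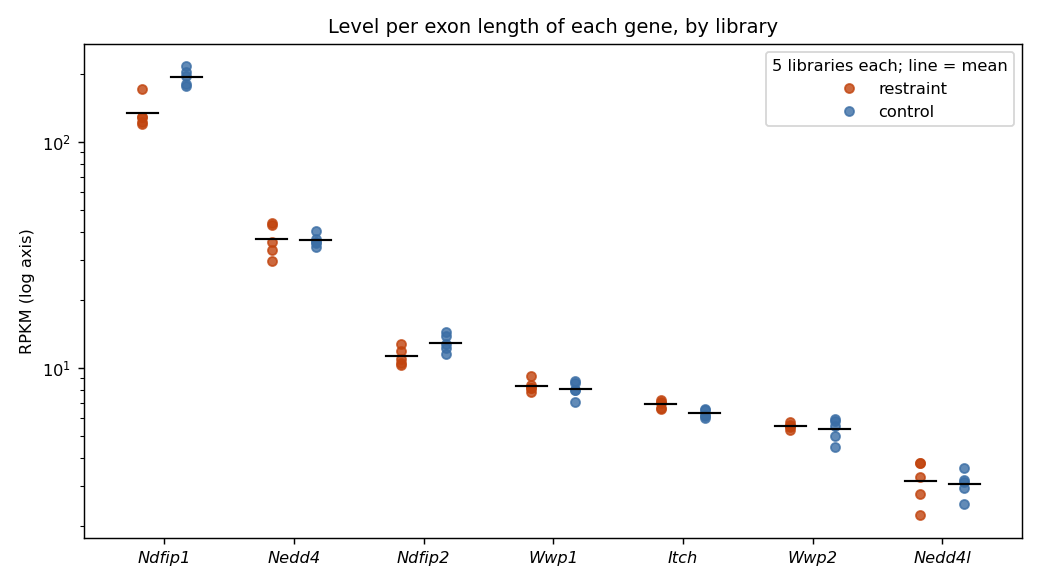
Level of each gene in RPKM (log axis, deposited exon length) in 5 restraint libraries (left in each pair) and 5 control libraries (right), with 1 point per library and a line at the mean. Ndfip1 lies above all other genes in both groups, with means of 134 RPKM after restraint and 194 RPKM in controls, and Nedd4 is the highest ligase.

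Ndfip1 lies at chr18:38543449-38598356 on the plus strand (GRCm39) and shares no exon bases with another annotated gene. Its TMM-normalized level was 811, 814, 754, 771 and 1081 CPM in restraint libraries 1 to 5, against 1281, 1143, 1361, 1241 and 1111 CPM in control libraries 1 to 5. Every restraint library lay below every control library, and the restraint 5 library came within a narrow margin of the lowest control. The log2 fold change, restraint over control, was -0.54 ± 0.10 (SE), or a fold of 0.690. Without restraint 5, which stood apart from the other restraint libraries, it was -0.65 ± 0.08 (SE), and without restraint 1 it was -0.52 ± 0.10 (SE). The percentage of low counts that were even, which reflects the counting of both mates, was 80.0 to 84.8% after restraint and 76.8 to 79.8% in controls, so the groups also stood apart in this library measure, whose part in the difference was not tested. With all counts halved the Ndfip1 log2 fold change was -0.54 ± 0.10 (SE). Halving scales every library alike, so it could hardly change this value and cannot address the difference in even counts.

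The place of Ndfip1 among transcripts of its abundance was as follows. Including Ndfip1, 78 genes (0.423% of those tested) had a mean level at least as high, in CPM. Ndfip1 had the lowest log2 fold change of these 78, and 1 of the 78 (1.28%), Ndfip1 itself, had every restraint library below every control, where the share was 1.36% over all genes tested. Over all 18440 genes tested, 1021 had a log2 fold change at or below that of Ndfip1. Because Ndfip1 was chosen for this difference, its place in these rankings is a description.

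**Figure D2:**
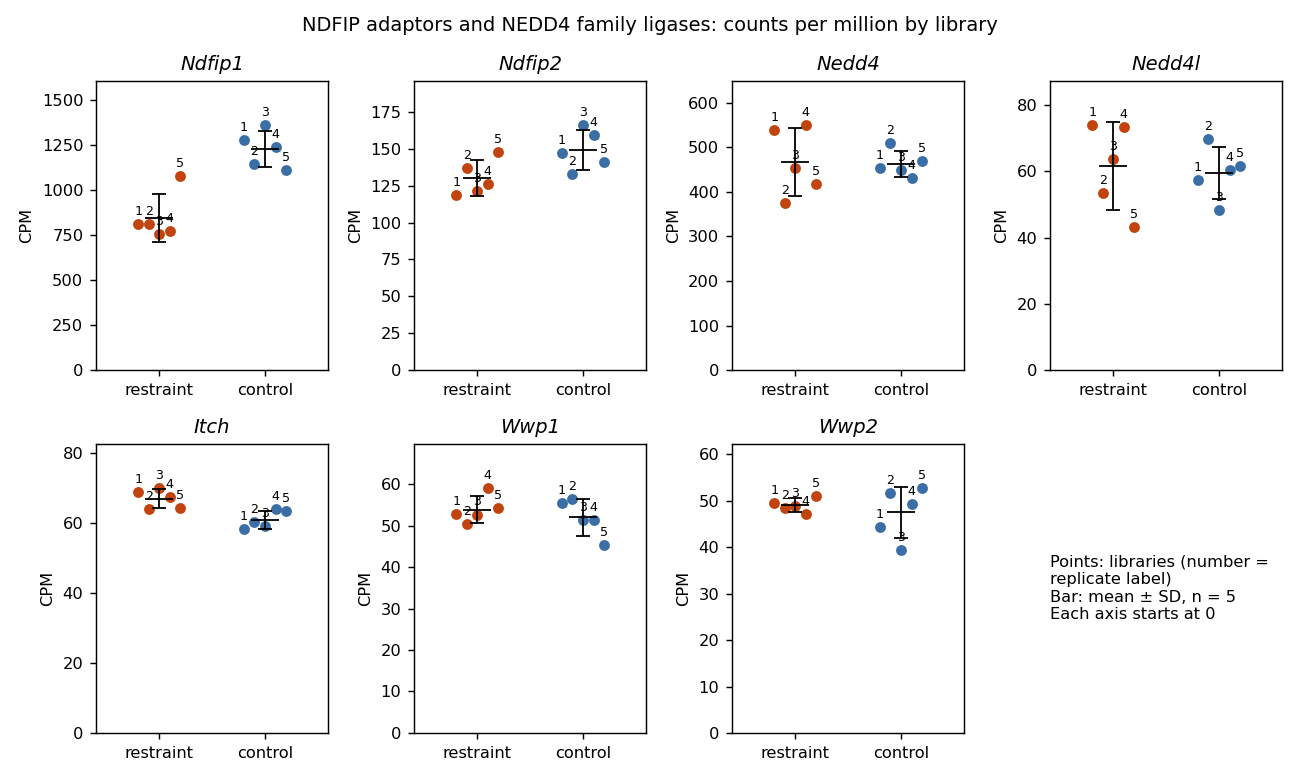
TMM-normalized CPM of each gene in restraint libraries (left) and control libraries (right), with 1 point per library, numbered by replicate label, and the mean ± SD (n = 5). Ndfip1 lies at 754 to 1081 CPM after restraint and 1111 to 1361 CPM in controls, while the ligases other than Itch overlap between the groups.

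Ndfip2, the second adaptor, lies at chr14:105496008-105546732 on the plus strand (GRCm39). It had 119, 137, 122, 126 and 148 CPM in restraint libraries 1 to 5, against 147, 133, 166, 159 and 141 CPM in control libraries 1 to 5. The groups overlapped, and 4 of 5 restraint libraries lay below the control median. The log2 fold change was -0.20 ± 0.08 (SE), a fold of 0.872. Ndfip2 shares 4.79% of its exon bases with Gm16259, a gene on the opposite strand with 0 counts in all libraries, and the counting did not use strand.

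Both adaptors had a lower point estimate after restraint, and Ndfip1 differed more than Ndfip2 in proportion. Per length, Ndfip1 stood at 11.8 ± 1.04 times the level of Ndfip2 after restraint and 15.03 ± 0.756 times in controls (SD, n = 5 each). The ratio ran from 10.9 to 13.3 after restraint and from 14.2 to 15.9 in controls, so the groups did not overlap. This ratio contains the difference for which Ndfip1 was chosen and is not separate evidence.

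Nedd4, whose product has been described to ubiquitinate AMPA receptor subunits and alpha-synuclein, lies at chr9:72569628-72657134 on the plus strand (GRCm39). It had 539, 374, 454, 550 and 417 CPM in restraint libraries 1 to 5, against 453, 509, 449, 431 and 470 CPM in control libraries 1 to 5. The restraint libraries enclosed the controls, with the 2 highest and the 2 lowest of all 10 values. The log2 fold change was 0.01 ± 0.10 (SE). Of its exon bases, 12.9% are shared with Gm7265 and Gm36936, predicted genes that held 26 and 31 counts over all libraries.

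Nedd4l lies at chr18:65020776-65350899 on the plus strand (GRCm39). It had 73.9, 53.6, 63.8, 73.3 and 43.2 CPM in restraint libraries 1 to 5, against 57.3, 69.8, 48.3, 60.4 and 61.7 CPM in control libraries 1 to 5. As for Nedd4, restraint 1 and restraint 4 were high and restraint 2 and restraint 5 low. The coefficient of variation was 21.5% after restraint and 13.1% in controls, the widest of the 7 genes in both groups. The log2 fold change was 0.05 ± 0.13 (SE). It shares 2.60% of its exon bases with A330084C13Rik on the opposite strand, which held 986 counts in all.

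Itch, the ligase lost in itchy mice and known in T cells for the turnover of JUN and JUNB, lies at chr2:154975429-155068775 on the plus strand (GRCm39) and shares no exon bases. It had 68.9, 64.0, 70.1, 67.6 and 64.3 CPM in restraint libraries 1 to 5, against 58.2, 60.4, 59.2, 64.0 and 63.4 CPM in control libraries 1 to 5. Every restraint library lay above every control, but only just, with the lowest restraint library at 64.028 CPM and the highest control at 64.025 CPM. Scaled by library size without TMM, the groups overlapped, with the lowest restraint library at 6.49 RPKM and the highest control at 6.54 RPKM. The log2 fold change was 0.13 ± 0.07 (SE). The coefficient of variation was 4.07% after restraint and 4.23% in controls.

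Wwp1, a ligase of KLF5 and other transcription factors, lies at chr4:19608303-19708993 on the minus strand (GRCm39). It had 52.7, 50.4, 52.7, 59.2 and 54.2 CPM in restraint libraries 1 to 5, against 55.4, 56.5, 51.5, 51.3 and 45.4 CPM in control libraries 1 to 5. The groups overlapped and the log2 fold change was 0.05 ± 0.08 (SE). Wwp2, a ligase of OCT4 whose locus also holds Mir140, lies at chr8:108162997-108285227 on the plus strand (GRCm39). It had 49.5, 48.4, 49.0, 47.1 and 51.1 CPM in restraint libraries 1 to 5, against 44.4, 51.7, 39.4, 49.3 and 52.8 CPM in control libraries 1 to 5. Its restraint values lay inside the range of the controls, and the log2 fold change was 0.05 ± 0.09 (SE).

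Calls among the 7 genes are set beside those over all genes. At an adjusted p under 0.05 in edgeR's quasi-likelihood test, 0 of 7 were lower and 0 of 7 higher, where 0.0163% of all genes tested were lower and 0.00542% higher. At an unadjusted p under 0.05 in that test, Ndfip1 and Ndfip2 (2 of 7) were lower and 0 higher, where 6.04% of all genes were lower and 5.64% higher. DESeq2 called 1 of the 7, Ndfip1, lower and 0 higher, where it called 1.04% of all genes lower and 0.754% higher. With limma-voom the count was 0 in either direction (0.0163% of all genes lower and 0.00542% higher), and with its quality weights Ndfip1 was lower (0.358% of all genes) and 0 of 7 were higher (0.114%). In TMM-normalized CPM, Ndfip1 was 1 of the 1.36% of genes with every restraint library below every control. Itch was 1 of the 1.25% with every restraint library above, which did not hold without TMM. The median log2 fold change was 0.05 over the 7 genes, with 5 positive and 2 negative, and -0.00 over all genes. The rule used this contrast, so nothing further is read from these counts.

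The sum of the adaptors per length was 145 ± 22.0 RPKM after restraint and 207 ± 17.1 RPKM in controls (SD, n = 5 each), and the sum of the 5 ligases was 61.0 ± 7.12 RPKM after restraint and 59.5 ± 3.22 RPKM in controls. Adaptor transcripts per ligase transcript thus stood at 2.42 ± 0.557 after restraint and 3.50 ± 0.441 in controls, with overlap between 1.93 to 3.27 after restraint and 2.97 to 4.05 in controls. Ndfip1 alone made up 64.7 ± 4.32% of the summed RPKM of the 7 genes after restraint and 72.7 ± 2.08% in controls. The ranges overlapped, at 60.5 to 71.2% after restraint and 70.3 to 75.2% in controls. Nedd4 made up 60.5 ± 2.90% of the ligase sum after restraint and 61.7 ± 1.29% in controls. Because these sums are weighted by the deposited exon lengths, the adaptor-to-ligase ratio per main transcript was higher in both groups, at 4.00 ± 0.991 after restraint and 5.73 ± 0.776 in controls. Its ranges overlapped as well, at 3.15 to 5.52 after restraint and 4.82 to 6.71 in controls. The adaptor sum, the adaptor-to-ligase ratios and the Ndfip1 share contain the difference for which Ndfip1 was chosen and are not separate evidence.

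Within groups, the adaptors varied together, with Nedd4l opposite to both and Nedd4 opposite to Ndfip2. Over the 10 libraries, with each value taken as the deviation from its group mean in log2 CPM, Pearson's r between Ndfip1 and Ndfip2 was 0.803 (Spearman's rho 0.782), and 0.545 without restraint 5 and control 3, the libraries farthest from the median of Ndfip1. Between Ndfip1 and Nedd4l it was -0.837 (rho -0.745), and -0.415 without those libraries, so these relations lean on restraint 5 and control 3. Between Ndfip2 and Nedd4l it was -0.879 (rho -0.867), and -0.720 without the same libraries. Between Ndfip2 and Nedd4 it was -0.686 (rho -0.77), and -0.731 without them. Ndfip1 had an r of -0.426 with Nedd4 and -0.593 with Itch, and -0.333 and -0.457 without them. Nedd4 and Nedd4l varied together, with r = 0.776 (rho 0.891), and 0.812 without restraint 2 and restraint 4. These are only some of the 21 pairs, described with no test, and the values of a library share its depth and its composition.

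One property of the libraries runs alongside Nedd4 and Nedd4l, and largely opposite to Ndfip2. For 8540 genes, the log2 CPM in a library was taken relative to the gene's mean over all libraries. The slope of these relative values on log2 exon length was 0.0672, -0.0674, 0.0121, 0.0971 and -0.0454 in restraint libraries 1 to 5. It ran from -0.071 to 0.0657 in controls. Its sign compares a library with the average library and does not give the direction in which level depends on length within it. Among the restraint libraries, numbers 1 and 4 had the highest slopes and the highest Nedd4 and Nedd4l, and numbers 2 and 5 had the lowest slopes and the lowest Nedd4 and Nedd4l. Restraint 2 and restraint 5 also had the highest Ndfip2 of that group, at 137 and 148 CPM. In the controls, control 2 had the highest slope and the lowest Ndfip2, at 133 CPM. Control 3 had the lowest slope and the highest Ndfip1 (1361 CPM) and Ndfip2 (166 CPM), whereas the lowest control Ndfip1 was in control 5 (1111 CPM). With the length trend of each library removed, the log2 fold change was -0.55 for Ndfip1, -0.21 for Ndfip2, -0.01 for Nedd4 and 0.03 for Nedd4l, against -0.54, -0.20, 0.01 and 0.05 without the correction. The part of this slope in the correlations was not tested.

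Genes whose level followed that of Ndfip1 most closely were sought among 8369 genes with a mean log2 CPM of at least 4. Over all 10 libraries, which include the restraint difference, the highest Pearson's r belonged to Rpl22l1 (0.972), Apbb3 (0.969), Wdr45b (0.967), Cdkn2d (0.966) and Atp5g3 (0.966), with Spearman's rho of 0.903 to 0.976. The median r over all these genes was -0.057, and 346 had an r above 0.8. Rpl22l1 is a ribosomal protein paralogue, Apbb3 encodes a binding protein of the amyloid precursor protein, Wdr45b an autophagy factor, Cdkn2d an inhibitor of cyclin-dependent kinases and Atp5g3 the c subunit of ATP synthase. Rpl22l1 averaged 10.3 ± 4.35 CPM after restraint and 29.1 ± 7.44 CPM in controls, a log2 fold change of -1.50 ± 0.24 (SE). Atp5g3 averaged 299 ± 99.8 CPM after restraint and 560 ± 88.3 CPM in controls, a log2 fold change of -0.90 ± 0.17 (SE). The fold changes of Apbb3, Wdr45b and Cdkn2d were -0.45 ± 0.10, -0.35 ± 0.09 and -0.57 ± 0.13 (log2, SE). As they were picked for likeness to a gene with lower restraint values, these differences are descriptions as well.

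When the group means were taken out, other genes came first. The highest r of deviations belonged to Mrps16 (0.928), Gabarapl2 (0.925), Pip4p1 (0.925), Imp3 (0.924) and Stard3nl (0.923), and 106 genes exceeded 0.8, around a median of -0.046. Mrps16 encodes a mitochondrial ribosomal protein, Gabarapl2 an ATG8-type autophagosome protein, Pip4p1 a phosphoinositide phosphatase, Imp3 a ribosomal RNA processing factor and Stard3nl an endosomal protein. Without restraint 5 and control 3 these r values ran from 0.535 (Imp3) to 0.784 (Gabarapl2), so a share of the likeness rests on those libraries. In restraint 5 these 5 genes lay between -0.03 (Gabarapl2) and 0.32 (Stard3nl) of their control means on the log2 scale, and in restraint 1 to 4 all lay below their control means.

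**Figure D3:**
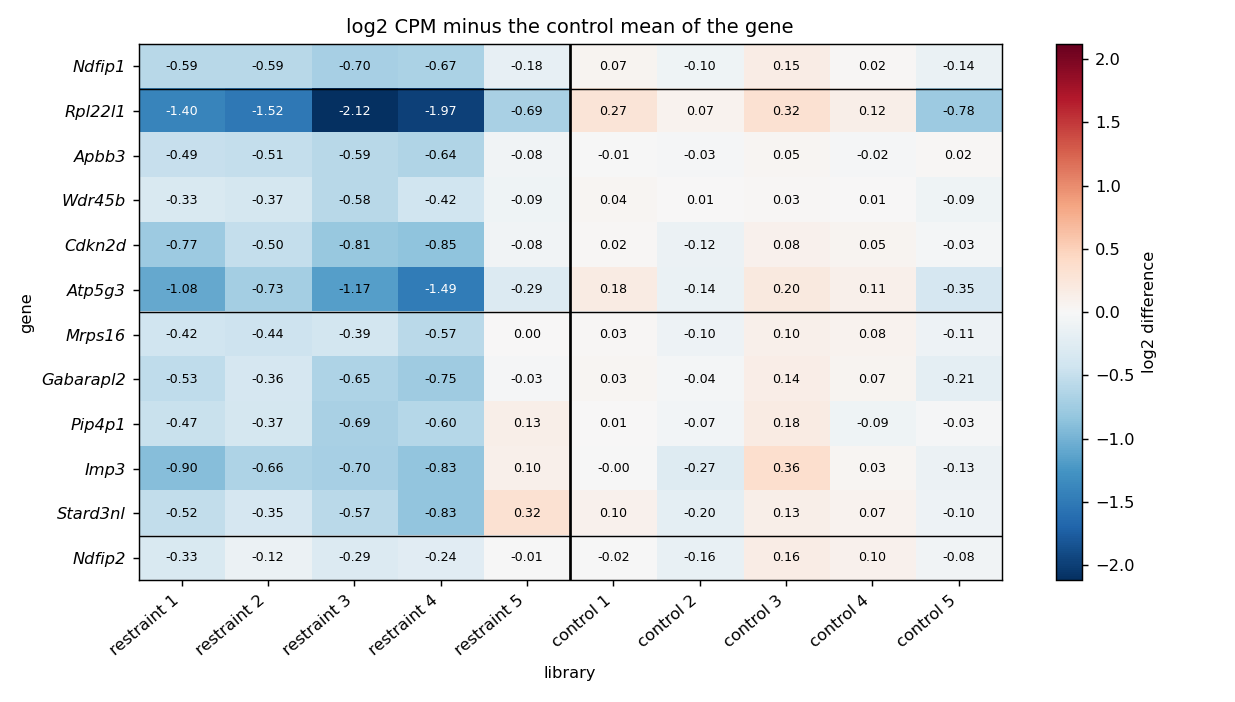
Log2 CPM minus the control mean of the same gene, in restraint libraries 1 to 5 (left) and control libraries 1 to 5 (right), for Ndfip1, the 5 genes with the highest r over all 10 libraries, the 5 with the highest r of deviations from group means, and Ndfip2. Ndfip1 is lower in restraint 1 to 4 than in restraint 5 (-0.18), and restraint 5 is also the highest restraint library of every other gene shown.

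The 4 other ligases of the NEDD4 family were set beside the 5 described here. None of Smurf1, Smurf2, Hecw1 and Hecw2 passed edgeR's threshold over all genes or that of DESeq2, 0 were higher and 1 lower at an unadjusted p under 0.05 in edgeR (5.64% and 6.04% over all genes), and their median log2 fold change was -0.04. Hecw2, a neuronal ligase, averaged 27.3 ± 2.83 CPM after restraint and 33.4 ± 2.20 CPM in controls, a log2 fold change of -0.29 ± 0.09 (SE, edgeR adjusted p = 0.211). Smurf1, a ligase of SMAD proteins and RhoA, had a log2 fold change of 0.09 ± 0.11 (SE), and that of Hecw1 was -0.11 ± 0.13 (SE).

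Of the 18 other HECT ligases, none passed the threshold in edgeR or DESeq2, and the median log2 fold change was -0.01, with 9 positive and 9 negative. At an unadjusted p under 0.05 in edgeR, 1 was higher and 2 were lower (5.64% and 6.04% over all genes). Ube3b had a log2 fold change of 0.24 ± 0.09 (SE), Trip12 of -0.24 ± 0.10 (SE) and G2e3 of -0.37 ± 0.17 (SE).

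Upstream of the ligases, 19 of 20 listed genes for ubiquitin, the activating (E1) and the conjugating (E2) enzymes were tested, and none passed edgeR's threshold, with 3 of 19 higher and 1 lower at an unadjusted p under 0.05 in edgeR (5.64% and 6.04% over all genes). Rps27a, which encodes ubiquitin fused to a ribosomal protein, averaged 200 ± 47.3 CPM after restraint and 306 ± 53.0 CPM in controls. Its log2 fold change was -0.61 ± 0.15 (SE, edgeR adjusted p = 0.130, DESeq2 adjusted p = 0.00442). DESeq2 called Rps27a alone of the 19, where it called 1.04% of all genes lower and 0.754% higher. Processed copies of Rps27a in the genome make its count uncertain, since the recorded options left multi-mapping reads uncounted. The E2 gene Ube2d1 had a log2 fold change of 0.26 ± 0.09 (SE). The median log2 fold change of the list was 0.08.

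Other adaptors and regulators that act on NEDD4 family ligases had mostly positive fold changes, 17 of 21 (81.0%, against 49.6% of all genes tested), with a median of 0.10 on the log2 scale, against -0.00 over all genes. None passed edgeR's threshold, and 7 of 21 were higher at an unadjusted p under 0.05, with 0 lower, where 5.64% of all genes were higher and 6.04% lower. Nothing particular to the list is read from these counts. Wbp1l, which encodes a PPxY-bearing binding protein of WW domains, averaged 49.0 ± 3.79 CPM after restraint and 38.6 ± 5.16 CPM in controls, a log2 fold change of 0.35 ± 0.10 (SE, edgeR adjusted p = 0.182, DESeq2 adjusted p = 0.0435). N4bp3, named for binding to NEDD4, had a log2 fold change of 0.33 ± 0.10 (SE). Arrdc2, an arrestin-domain adaptor of these ligases, had a log2 fold change of 0.50 ± 0.17 (SE). DESeq2 called Wbp1l alone of the 21, where it called 0.754% of all genes higher and 1.04% lower.

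Among 17 genes for reported substrates of the ligases, none passed edgeR's threshold, and the median log2 fold change was 0.04. At an unadjusted p under 0.05 in edgeR, 5 of 17 were higher and 0 lower, beside 5.64% higher and 6.04% lower over all genes. Jun, an early response transcription factor, averaged 89.6 ± 6.09 CPM after restraint and 67.9 ± 6.27 CPM in controls. Its log2 fold change was 0.40 ± 0.08 (SE, edgeR adjusted p = 0.080, DESeq2 adjusted p = 0.00132). Every restraint library lay above every control for 2 of the 17, Jun among them (1.25% of all genes). DESeq2 called Jun alone of the 17, where it called 0.754% of all genes higher and 1.04% lower. Junb averaged 84.4 ± 16.3 CPM after restraint and 57.2 ± 15.8 CPM in controls, a log2 fold change of 0.56 ± 0.17 (SE). Cflar, an inhibitor of caspase-8, had a log2 fold change of 0.30 ± 0.11 (SE). Slc11a2, the gene of DMT1, was named for its known link to NDFIP1 and averaged 37.2 ± 2.92 CPM after restraint and 39.95 ± 5.28 CPM in controls, a log2 fold change of -0.10 ± 0.10 (SE, edgeR adjusted p = 0.751).

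Downstream, the ESCRT machinery sorts ubiquitinated membrane proteins into the lumen of late endosomes. None of 20 genes for ESCRT subunits and the linked deubiquitinases passed the threshold in edgeR or DESeq2, 1 was higher and 1 lower at an unadjusted p under 0.05 in edgeR (5.64% and 6.04% over all genes), and their median log2 fold change was 0.04. Stam, an early ESCRT subunit that binds ubiquitin, averaged 80.5 ± 3.68 CPM after restraint and 90.6 ± 5.95 CPM in controls, a log2 fold change of -0.17 ± 0.07 (SE). Tsg101 had a log2 fold change of 0.19 ± 0.09 (SE) and Chmp4b of 0.22 ± 0.10 (SE). Over the 6 lists together, limma-voom called 0 genes (0.0163% of all genes lower and 0.00542% higher). With quality weights it called Rps27a lower and Jun higher (0.358% of all genes lower and 0.114% higher).

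**Figure D4:**
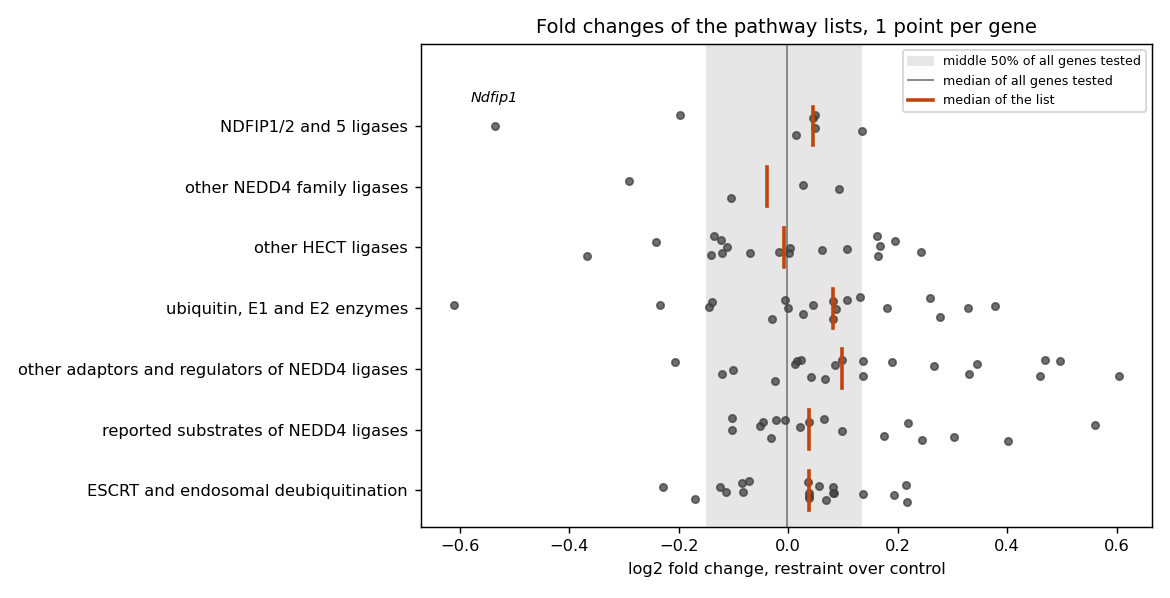
Log2 fold change, restraint over control, of each tested gene in the group described here and in 6 lists of related genes (1 point per gene, scattered vertically), with the median of each list in red and the median and middle 50% of all genes tested in grey. Ndfip1 (-0.54) lies far to the left of its partners, and Rps27a (-0.61) in the ubiquitin list lies further left.

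The lower level of Ndfip1 kept its sign in each of 23 alternative analyses, with a log2 fold change between -0.65 (without restraint 5) and -0.49 (without control 3). That of Ndfip2 was also negative in all 23, between -0.25 and -0.15, and that of Itch positive in all 23, between 0.11 and 0.15. Nedd4, Nedd4l, Wwp1 and Wwp2 each had estimates on both sides of 0. The alternatives reuse the libraries on which Ndfip1 was chosen, so its kept sign is a description and not separate evidence. Ndfip1 passed the adjusted threshold in 7 of the 23. Its largest adjusted p was 0.298, in edgeR with the replicate number as a block.

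**Figure D5:**
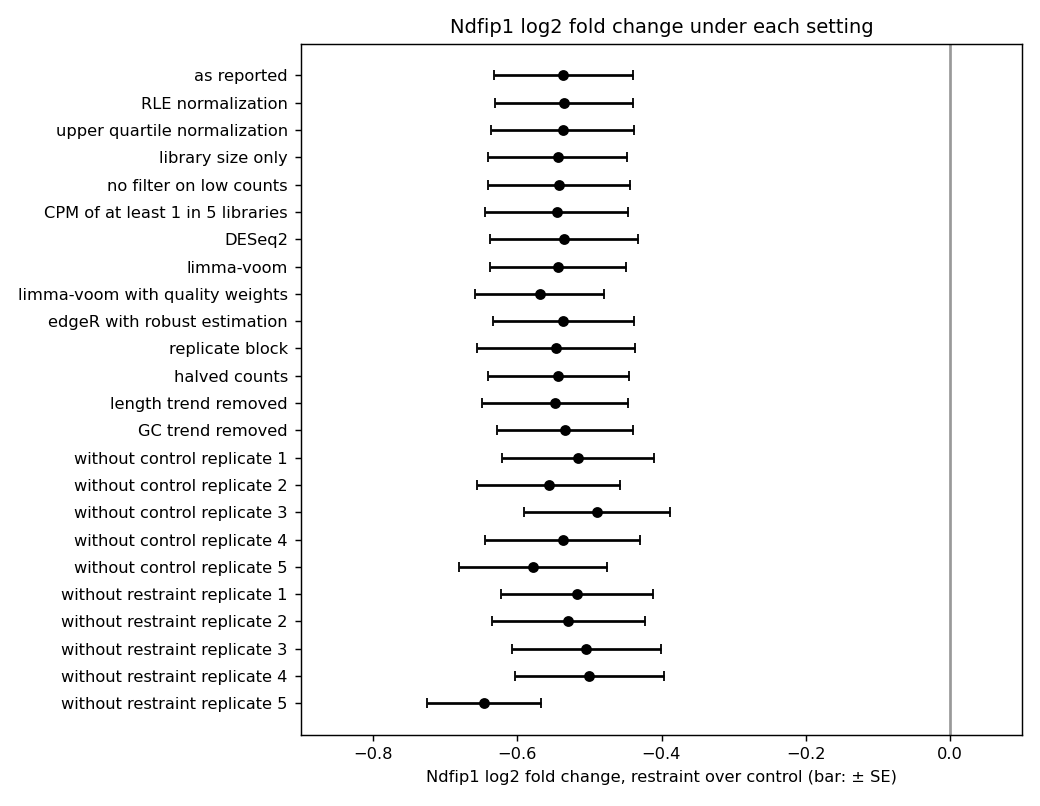
Ndfip1 log2 fold change, restraint over control, with its SE (horizontal axis) in the analysis as reported and in 23 alternatives (vertical axis). Every estimate lies between -0.65 and -0.49, and all reuse the libraries on which Ndfip1 was chosen.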

How the data were processed

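The deposited table holds whole-number read counts per gene for 10 libraries. Counts were made with featureCounts 2.0.3 on GENCODE M30 exons, per the file headers, with paired-end input but no strand or read-pair counting, so each mate counted. Trimmomatic and STAR are named, without versions, in the submitters' processing notes. These notes name mm10, while GENCODE M30 annotates GRCm39; gene coordinates are as deposited (GRCm39), and sequences come from GENCODE M21 (GRCm38). Symbols were matched for 52073 of 56691 genes. Genes were filtered (edgeR filterByExpr, count minimum 10, total minimum 15), TMM-normalized and tested with edgeR 4.0.16 (quasi-likelihood, group only, R 4.3.3) with Benjamini-Hochberg adjustment at 0.05; the median SE of a log2 fold change was 0.136, with a prior count of 2 in log2 CPM. DESeq2 1.42.0 and limma 3.58.1 (voom) were alternatives, and other normalizations, filters and omitted libraries were also tried.

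The genes described and all lists were chosen with earlier results of these data known. Named genes are the 7 of the group, up to 3 per list with the smallest p, and 5 per likeness measure, without predicted genes; a gene that this rule takes is not reported here. Labels do not say whether libraries came from separate animals, so p-values measure the spread between these libraries, which may be technical.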

Additional observations from a re-analysis of the deposited data

Results flagged for a closer look

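Among the named genes, 8 of 68 groups of 5 libraries (11.8%) held a library whose gap to its nearest neighbour exceeded 0.71 of the group's range, Dixon's 95% critical value, which chance alone exceeds in about 1 of 20 groups. Ndfip1 in restraint 5 had 1081 CPM, while the remaining restraint libraries ran from 754 to 814 CPM. The same library was high for Apbb3 (38.4 CPM), Mrps16 (39.7 CPM) and Imp3 (33.0 CPM). These genes had been picked for likeness to Ndfip1, so their flags do not add to its own. Away from Ndfip1, G2e3 was low in restraint 1, at 3.23 CPM, and Wbp1l was high in restraint 2, at 55.6 CPM. In the controls, Wbp1l was low in control 3, at 29.4 CPM. Wdr45b, which had also been picked for likeness to Ndfip1, was low in control 5, at 49.2 CPM. Control 5 was the lowest control library of Ndfip1 as well, at 1111 CPM, though it was not flagged there.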

How the results depend on the processing

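Genes called over the whole table were 1 higher and 3 lower as reported. The counts were 5 higher and 12 lower with library size only, 103 and 199 without a filter on low counts, 139 and 192 with DESeq2, 21 and 66 with voom quality weights, and 20 and 48 with the length trend removed. With the GC trend removed they were 2 higher and 3 lower. Robust estimation gave 0 in both directions (2154 genes at an unadjusted p under 0.05 in edgeR). Leaving out a library gave 0 to 9 higher and 0 to 83 lower, with 83 without restraint 5. Ndfip1 passed the threshold, as 1 of the 7 genes, with library size only, no filter, DESeq2, voom quality weights and the length trend removed, and without control 5 or restraint 5 (range 0 to 1), which describes the contrast it was chosen on and is no test of it. In the list of ubiquitin, E1 and E2 enzymes, 1 gene was lower with no filter, DESeq2 and voom quality weights, and 0 to 1 when a library was left out. Of the other adaptors, 1 was higher with no filter and 1 with DESeq2. The DESeq2 call was Wbp1l, whose edgeR adjusted p with no filter was 0.0695, so the calls were of different genes. Of the substrates, 2 were higher with no filter, and 1 with DESeq2 and voom quality weights. The Hecw1 log2 fold change ran from -0.184 to 0.011 when a library was left out, and turned positive without control replicate 2. The causes were not tested.

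Libraries with the same replicate number were not alike by this measure: their deviations from group means correlated at -0.164 to 0.027, and 0 of 10 libraries correlated best with their own number. The labels do not say what the numbers mark, and with 5 libraries per group these correlations cannot decide it. With the replicate block, 0 genes were called in either direction (1704 at an unadjusted p under 0.05 in edgeR), and Ndfip1 had a log2 fold change of -0.546. Alternatives chosen after seeing the data were halved counts and removal of the length or GC trend (lowess, span 0.3).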
